A study of Zea mays with 38 samples.

Results

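The comparison described here is the change in the UV response of maize leaves between 12 h and 8 h of UV-B irradiation, that is, what is gained, lost or reversed late in irradiation. It rests on the 16 samples whose titles mark them as 12 h or 8 h, of 38 samples in the series. They form 8 of the 19 slides, with 4 slides at each time. The groups were UV-treated leaves at 12 h, control leaves at 12 h, UV-treated leaves at 8 h and control leaves at 8 h, with 4 samples each. All were total RNA of maize seedling leaves. The labels give the inbred B73 for the samples of 1 h and 2 h and name no line for those of 12 h and 8 h. The control plants had no applied stress and were sampled at the same hours, so that changes over the day enter both sides of each ratio. Each slide carried 1 UV and 1 control sample on a spotted cDNA array. UV carried the Cy5 dye on slides a and b and the Cy3 dye on slides c and d at both times. The series' text speaks of 4 replicates with dye-swap duplicates and of groups of plants, and it gives neither the UV-B dose nor whether slides of one time came from separate plants. The p-values therefore measure a spread between slides that may be technical.

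UV-B is the shortest-wavelength sunlight that reaches plants, and it damages DNA, proteins and membranes and produces reactive oxygen. Leaves answer with DNA repair, antioxidant enzymes, protective phenolics and, under stronger exposure, defence and cell death genes, while photosynthesis genes often fall. Misfolded proteins in the endoplasmic reticulum (ER) call up chaperones such as calnexin and calreticulin and the protein disulfide isomerases, which form and shuffle disulfide bonds. All values below are log2(UV/control) per slide, or the 12 h mean minus the 8 h mean of these ratios, called the difference. A fit with limma to all 19 slides gave each difference its standard error (SE) and a p adjusted by Benjamini-Hochberg over 20014 features, with a threshold of 0.05. A feature is 1 spotted cDNA, given by its identifier and, where the platform's table names one, its gene.

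The channels of the 8 slides held 18987 to 20122 spots. Markers of leaf mesophyll and photosynthetic tissue were bright, with 8 of 8 features above the brightest of 7 foreign sequences on the array. Above it also lay 2 of 3 bundle sheath features and 72.5% of all tested features. Of the endosperm and embryo markers, 16 of 20 were also above it, against 0 of 2 for pollen and anther and 0 of 1 for root. The endosperm and embryo markers had a mean log2 intensity of 18.2 to 19.3 in UV leaves and 18.2 to 19.2 in control leaves at 12 h, and of 17.6 to 18.2 in UV leaves and 17.7 to 18.2 in control leaves at 8 h. Their part in the results was not tested, and fewer cells of a type cannot be told apart from less RNA per cell.

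One slide of 12 h stood apart in a part of its area. The slide is divided into 48 blocks of spots in 12 tiers. In 8 blocks of the 12 h slide a, all in tiers 11 and 12, the brightness of the spots did not follow that of the same positions on the other slides, with a correlation below 0.5, while its other blocks lay at 0.877 or more. In tier 11 the correlations in place were -0.19 to 0.39. They were 0.95 to 0.97 when each spot was set against the spot 1 row before it. In tier 12 no shift of up to 2 rows or columns gave more than 0.39. These blocks hold 2520 tested features, and for 336 of them the block of the 12 h slide b was below 0.5 as well. No block of an 8 h slide was below 0.5. Of the 11 slides of 1, 2 and 4 h, 4 held 23 such blocks. They lay in tier 9 of the 1 h slide b, tier 11 of the 1 h slide d, and tier 12 of these slides, the 1 h slide c and the 2 h slide a. Fits to all slides without the mismatched blocks left these out as well. The differences of features named from the mismatched blocks of the 12 h slides are given with and without them. Counts over lists include their features.

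Few differences between the times passed the threshold, which does not show that the other responses were alike. Of 20014 features, 4 passed (0.02%), 3 of them higher at 12 h (0.015%) and 1 lower (0.005%), and 2277 had an unadjusted p under 0.05 (11.4%). The UV response itself was called in 867 features at 12 h (4.33%), with 464 higher in UV (2.32%) and 403 lower (2.01%), and in 1510 features at 8 h (7.54%), with 1012 higher (5.06%) and 498 lower (2.49%). Both counts rested on single slides: 272, 235, 154 and 243 features were called at 12 h without the 12 h slide a, b, c or d, and 7, 344 and 772 at 8 h without the 8 h slide a, b or d. With median centring in place of loess, the split of calls at 8 h was 1505 higher to 1678 lower, and 205 differences passed, 190 of them higher at 12 h. The fit to the 12 h and 8 h slides alone, planned as an alternative, called 325 differences of 20000 features (1.62%), of which 306 were higher at 12 h and 19 lower. The median residual SD of a feature was 0.251 in that fit and 0.332 in the fit to all slides. Without the mismatched blocks, 3 differences passed in the fit to all slides and 312 in the fit to these 8 slides.

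**Figure D1:**
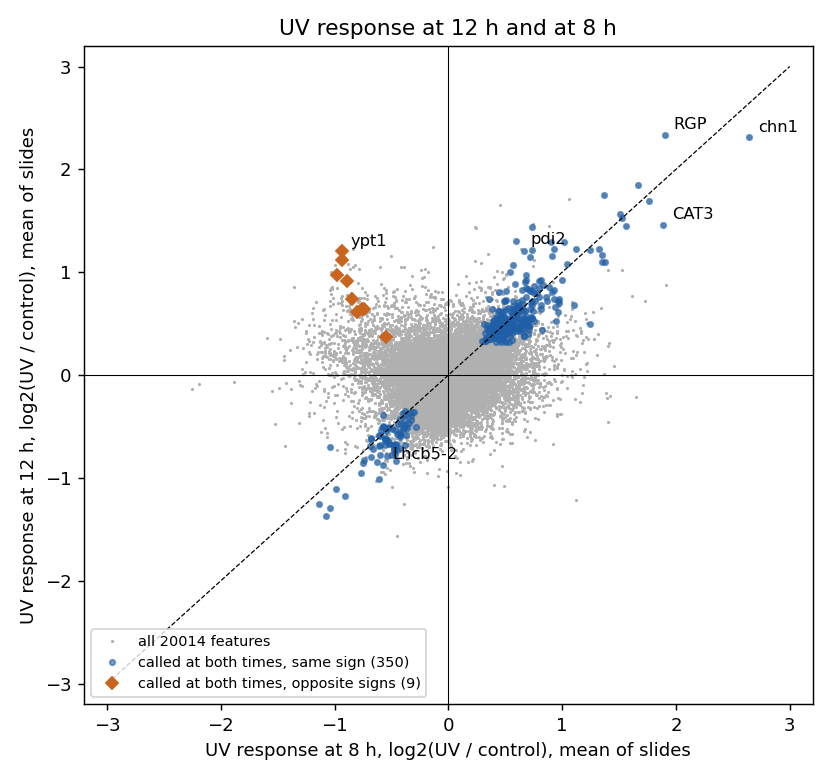
Mean log2(UV/control) at 12 h (vertical axis) against that at 8 h (horizontal axis) for all 20014 features, with the dashed line marking equal responses. Blue points are the 350 features called at both times with the same sign, and orange diamonds are the 9 called with opposite signs, all of which lie below 0 at 8 h and above 0 at 12 h.

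Most of what was called at both times held its direction. Of these features, 350 had the same sign, 272 higher in UV and 78 lower, with a median size of 0.53 at 12 h and 0.55 at 8 h. None of these 350 differences passed, and 13 had an unadjusted p under 0.05. A further 508 features were called only at 12 h and 1151 only at 8 h, but of these 1 and 0 had a difference that passed. A call at 1 time alone is therefore not shown to be a gain or a loss. The remaining 9 features were called with opposite signs, and for 3 of them the difference passed. Across features, the mean responses at the 2 times correlated at r = 0.18. A 12 h slide and an 8 h slide of the same dye orientation correlated at a median r of 0.23, and slides of opposite orientation at -0.01.

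Of the 350 features held at both times, 30 had a gene name. Those with large responses are described here. RGP, named for a reversibly glycosylated polypeptide of cell wall sugar metabolism (AI739985), had 2.56, 2.24, 2.42 and 2.14 on the 12 h slides a to d, against 2.19, 1.80, 1.45 and 2.17 on the 8 h slides. The ranges overlapped, and the difference was 0.44 ± 0.38 (SE, n = 4 slides each, limma adjusted p = 0.677). The catalase feature CAT3 (AI999974), for an enzyme that breaks down hydrogen peroxide, had 1.65, 1.77, 1.09 and 1.33 at 12 h, against 2.39, 2.47, 0.83 and 1.85 at 8 h. Its response was called at both times, and its difference was -0.42 ± 0.37 (limma adjusted p = 0.674).

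The chitinase chn1 (BE056094), which acts on the chitin of fungal walls, had 1.92, 2.95, 2.28 and 2.09 at 12 h, against 4.15, 4.22, 1.32 and 0.88 at 8 h. At 8 h its slides with UV in Cy5 lay far above those with UV in Cy3, while at 12 h they did not part that way. Its difference was -0.33 ± 0.60 (limma adjusted p = 0.864), at -1.75 on slides a and b and 1.08 on slides c and d. The peroxidase PER42 had a response of 1.29 ± 0.18 at 12 h and 0.90 ± 0.18 at 8 h. The gene lls1, whose product opens the chlorophyll ring during breakdown and whose loss gives spreading leaf lesions, had 1.10 ± 0.20 at 12 h and 1.35 ± 0.20 at 8 h. Like chn1, it parted by dye at 8 h, with 2.23 and 2.17 on slides a and b and 0.39 and 0.61 on slides c and d. Its difference was -0.93 on slides a and b and 0.43 on slides c and d. Of the 7 features of leaf cell death genes, 3 were called higher in UV at 12 h and 5 at 8 h, against 2.32% and 5.06% of all features. Both hir3 features, named for the hypersensitive induced reaction, stood at 0.68 and 0.55 at 12 h and at 0.73 and 0.55 at 8 h.

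Of the 78 features held below control, 4 named ones follow. Lhcb5-2, a light-harvesting protein gene (AI834658), had -0.40, -1.19, -0.77 and -1.13 at 12 h, against -0.30, -0.64, -0.26 and -1.08 at 8 h. The groups overlapped, with a difference of -0.30 ± 0.23 (limma adjusted p = 0.633). The lhcb5 feature AW927758 was lower in UV at both times, by -0.64 ± 0.13 at 12 h and -0.56 ± 0.13 at 8 h, but the other lhcb5 feature, AI612478, stood at 0.46 at 12 h and -0.76 at 8 h. Of the 16 light reaction features, 2 were called lower in UV at 12 h and 3 at 8 h, and 0 higher, against 2.01% and 2.49% of all features lower. CesA-9, a cellulose synthase gene, stood at -0.61 ± 0.16 at 12 h and -0.68 ± 0.16 at 8 h. Of the 45 cell wall features, 3 were called higher and 2 lower in UV at 12 h, against 2.32% and 2.01% of all features. At 8 h 4 were called higher and 4 lower, against 5.06% and 2.49% of all features. The oxophytodienoate reductase opr6 was lower in UV as well, at -0.53 ± 0.12 at 12 h and -0.59 ± 0.14 at 8 h.

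ER folding genes were the list in which 12 h stood most often above 8 h by slide, although no single difference passed. The 29 features of this list were called higher in UV 6 times at 12 h, against 2.32% of all features, and once at 8 h, against 5.06%. In 7 of the 26 features measured on all 8 slides, the 12 h slides lay wholly above the 8 h slides (26.9%, against 4.48% of all features), and in 1 they lay wholly below (against 3.83%). The 6 features called at 12 h belong to CNX, PDIL1-1, pdi2 and crt2. The median difference of the whole list was 0.0007, against -0.04 for all features, so the other members did not lean the same way. The list was chosen with earlier results of these data known.

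Calnexin, CNX, is a membrane-bound chaperone of newly made glycoproteins. Its feature AI737911 had 1.03, 0.79, 0.98 and 0.76 at 12 h, against 0.40, 0.28, 0.44 and 0.60 at 8 h. All 12 h slides exceeded all 8 h slides, with a difference of 0.46 ± 0.23 (unadjusted p = 0.0613, limma adjusted p = 0.466). Its feature BQ528117 had 0.78 to 1.20 at 12 h and 0.39 to 0.63 at 8 h, again without overlap, with a difference of 0.48 ± 0.28 (limma adjusted p = 0.536). The third CNX feature, AW257966, was below 0 on each 8 h slide, from -0.72 to -0.35, and from 0.01 to 0.65 at 12 h, and so did not share the response at 8 h of the other two.

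The protein disulfide isomerase pdi2 (AW352520) had 1.53, 1.03, 1.39 and 0.94 at 12 h, against 0.86, 0.55, 0.72 and 0.42 at 8 h. The groups did not overlap, and the difference was 0.58 ± 0.31 (limma adjusted p = 0.499). Calreticulin, crt2 (BQ635829), a soluble calcium-binding chaperone of the ER, had 1.03, 0.93, 0.62 and 0.72 at 12 h, against 0.22, 0.41, 0.16 and 0.37 at 8 h. Again no 8 h slide reached the lowest 12 h slide, and the difference was 0.54 ± 0.25 (unadjusted p = 0.0469, limma adjusted p = 0.429). PDIL1-1 (AW147172) had a response of 0.80 ± 0.15 at 12 h and 0.43 ± 0.17 at 8 h, where 3 slides were measured. The pdi2 feature AW927656, also called at 12 h, had a difference of 0.43. Further features of these genes did not share the rise or went otherwise. The feature pdi2 AW065896 had a difference of -0.46, and crt2 AI622476, AW066588 and AI855285 had -0.40, -0.13 and 0.05. PDIL1-1 BQ620978 had 0.0007 and PDIL1-1 AW066839 had 0.26, and both were called at neither time. PDIL1-1 AI665069 was called higher at 8 h alone, at 0.26 ± 0.21 at 12 h and 0.84 ± 0.21 at 8 h. There 1 slide of 8 h stood at 2.27 and the other 3 at 0.26 to 0.47.

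The responses of these 6 features were already above 0 at 8 h. With the 12 h and 8 h slides alone, all 6 were called at 12 h and 4 of them at 8 h too. Leaving out the mismatched blocks kept all 6 calls at 12 h. Leaving out 1 slide of 12 h kept 0 to 3 of them, with 2 without slide a, 2 without slide b, 0 without slide c and 3 without slide d. These features were picked by their calls at 12 h, so the sign of their differences is in part fixed by that choice.

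**Figure D2:**
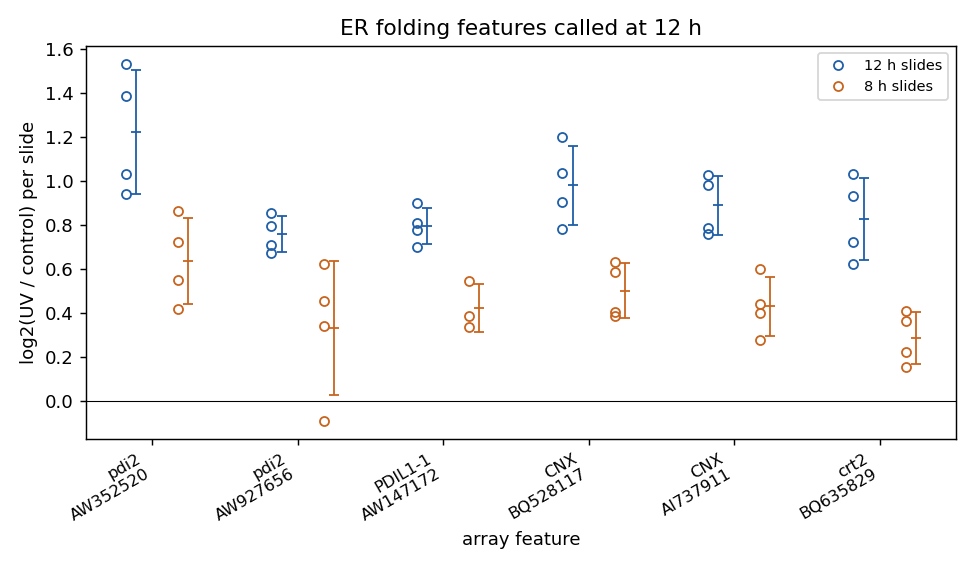
Log2(UV/control) on each slide (circles) for the 6 ER folding features called higher in UV at 12 h, with 12 h slides in blue left of 8 h slides in orange. Bars give the mean ± SD of the slides. The features were picked by their calls at 12 h, and most of their 8 h slides also lie above 0.

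Other named features were called only at 12 h in both directions. The feature orp2 AI629783, described below, was higher in UV, at 0.80 ± 0.20, and those that follow were lower. The sucrose phosphate synthase gene sps1, for a step in making sucrose for export, had -0.99, -0.87, -0.69 and -0.98 at 12 h, against -0.17, -0.25, -0.45 and -0.48 at 8 h. All 12 h slides lay below all 8 h slides, with a difference of -0.55 ± 0.21 (unadjusted p = 0.0192, limma adjusted p = 0.326). The features vpp1 AI668193 and vpp1 BE130067, for a proton pump of the vacuole driven by pyrophosphate, stood at -0.69 ± 0.16 and -0.52 ± 0.12 at 12 h, against -0.17 ± 0.16 and -0.08 ± 0.12 at 8 h. The C4 photosynthesis gene pdk1, for pyruvate orthophosphate dikinase, stood at -0.71 ± 0.14 at 12 h and -0.33 ± 0.14 at 8 h on AI666262. The other pdk1 feature, AW225169, was called at neither time, with -0.35 at 12 h and -0.46 at 8 h. None of these differences passed. Of the 22 carbon fixation features, 1 was called at 12 h, lower in UV, against 2.01% of all features, and 0 at 8 h. In that list 2 features had a higher and 0 a lower response at 12 h at an unadjusted p under 0.05, against 5.75% and 5.63% of all features.

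Of the 1151 features called only at 8 h, 65 had a gene name. Of 63 ribosomal and elongation factor features, 3 were called higher in UV at 12 h, against 2.32% of all features, and 10 at 8 h, against 5.06%. The elongation factor gene elfa5 stood at 0.35 ± 0.28 at 12 h and 1.28 ± 0.28 at 8 h, the initiation factor gene eif3 at 0.18 ± 0.22 and 0.84 ± 0.22, and the acidic ribosomal protein feature arpp2a BU093490 at 0.02 ± 0.16 and 0.76 ± 0.16, in the order 12 h and 8 h. For eif3 the 8 h slide a stood at 2.16 and the others at 0.26 to 0.59. The other features of elfa5 (2) and eif3 (4) were called at neither time. Of the 4 sh1 features, for sucrose synthase, 2 were called at 8 h alone. AI861486 stood at 0.58 ± 0.22 at 12 h and 1.02 ± 0.26 at 8 h, and AI711818 at 0.30 ± 0.25 and 0.88 ± 0.25, with a difference of -0.58, or -0.38 without the mismatched blocks. The allene oxide cyclase feature aoc1 BQ294408, for a step of jasmonate synthesis, had 0.09, -0.13, 0.19 and 0.04 at 12 h, against 2.44, 0.55, 0.49 and 0.59 at 8 h. All of its 8 h slides were higher, and slide a most of all. Its difference was -0.97 ± 0.33 (limma adjusted p = 0.281), and -0.48 without the 8 h slide a. Another aoc1 feature, AI770695, had a difference of 1.03 ± 0.39 in the opposite direction.

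Among named features with a response that was lower at 12 h, the smallest p belonged to igl1, whose product releases indole for volatile defence compounds. It had -0.90, -0.56, -0.58 and -0.45 at 12 h, against 0.42, 0.26, 1.14 and 0.09 at 8 h. The groups lay on opposite sides of 0, but neither response was called, and the difference was -1.10 ± 0.25 (limma adjusted p = 0.116), and -0.36 with median centring. The pyruvate dehydrogenase gene pdh2 had a difference of -1.01 ± 0.26, MRP2 of -0.39 ± 0.11 and the embryo storage globulin feature glb1 AW066754 of -0.91 ± 0.25. The other glb1 features went the other way, with 0.22 (AW261338) and 0.59 (AW267422). The superoxide dismutase gene sod2 had -0.06 ± 0.12 at 12 h and 0.42 ± 0.12 at 8 h, a difference of -0.48 ± 0.17. The enolase gene eno1 had 0.00 ± 0.11 at 12 h and 0.52 ± 0.11 at 8 h. The gene psbs1, for the photosystem II protein that sheds excess light as heat, had a difference of -0.81 ± 0.28. The signals of these igl1, pdh2, glb1 and psbs1 features were below that of the brightest foreign sequence. None of the differences of igl1, pdh2, MRP2, glb1 AW066754, sod2, eno1 and psbs1 passed (limma adjusted p from 0.116 to 0.288).

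No member of the other lists passed the difference either, whether in one direction or the other. Beside the background of 5.75% higher and 5.63% lower at an unadjusted p under 0.05, the 44 features of transcription factors had 7 higher and 0 lower, the 32 aquaporin features 5 and 2, the 45 cell wall features 3 and 1, and the 13 heat shock features 3 and 0. The 88 chromatin features had 4 higher and 5 lower, the 49 cytoskeleton features 1 and 3, the 35 sucrose and starch features 1 and 2, and the 28 features of glycolysis and fermentation 1 and 1. Antioxidant enzymes had 2 and 1 of 22, glutathione S-transferases 2 and 1 of 20, light reactions of photosynthesis 2 and 1 of 16, and defence genes 1 and 0 of 16. Jasmonate genes had 1 and 2 of 13, phenylpropanoid and methyltransferase genes 0 and 1 of 13, small GTPases 1 and 0 of 12, and leaf cell death genes 0 and 0 of 7. In ribosome and elongation genes the counts were 2 and 4, and in ER folding genes 1 and 1. Among the transcription factors and aquaporins counted as higher, OBF1 AI948028, GBF1 and PIP1-3 AI947544 lie in row 14 of tiers 9 and 11, described below. GIF3 lies in the mismatched blocks, and its unadjusted p in limma was 0.0139 with them and 0.0661 without them.

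The 4 differences that passed were of unnamed features. AI622289 had 0.42, 0.34, 1.04 and 0.67 at 12 h, against -0.83, -0.94, -0.83 and -0.62 at 8 h, a difference of 1.42 ± 0.22 (limma adjusted p = 0.0466). UV leaves were thus above control on every 12 h slide and below it on every 8 h slide. Without the mismatched blocks, which hold it on the 12 h slide a and the 1 h slide d, its difference was 1.45 ± 0.22 (limma adjusted p = 0.0579). AW787774 (1.41 ± 0.21) and AW216271 (0.92 ± 0.14) showed the same change of sign on all slides. AW216142 had -1.30, -1.01, -0.80 and -0.69 at 12 h, against -0.39, -0.19, -0.11 and -0.04 at 8 h. It was the 1 passing feature that was further below control at 12 h, by -0.77 ± 0.11 (limma adjusted p = 0.0466). With 1 of the 8 slides left out, AW216271 and AW216142 each kept a passing difference in 1 of 8 fits, and AW787774 and AI622289 in 0.

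The named feature with the largest change of sign was ypt1 (AW231563), for a small GTPase of the Rab type, a family that directs membrane vesicles between compartments. Yeast Ypt1 acts in traffic from the ER to the Golgi. It had 1.28, 0.93, 1.43 and 1.17 at 12 h, against -1.33, -0.83, -0.97 and -0.62 at 8 h. UV leaves held 2.30 times the control signal at 12 h and 0.522 times at 8 h, and both responses were called (limma adjusted p = 0.0180 and 0.0400). The difference of 2.14 ± 0.37 (95% interval 1.36 to 2.92) missed the threshold in the fit to all slides (limma adjusted p = 0.0655) and passed in the fit to the 12 h and 8 h slides alone (limma adjusted p = 0.00484) and with median centring (limma adjusted p = 0.0464). It passed in 7 of 26 alternatives and in 0 of the 8 fits that left out 1 slide (limma adjusted p from 0.0813 to 0.248), and was 1.43 on the authors' matrix values (limma adjusted p = 0.124). The 26 do not count the fits to slides a and b alone or to slides c and d alone, in which no difference passed.

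**Figure D3:**
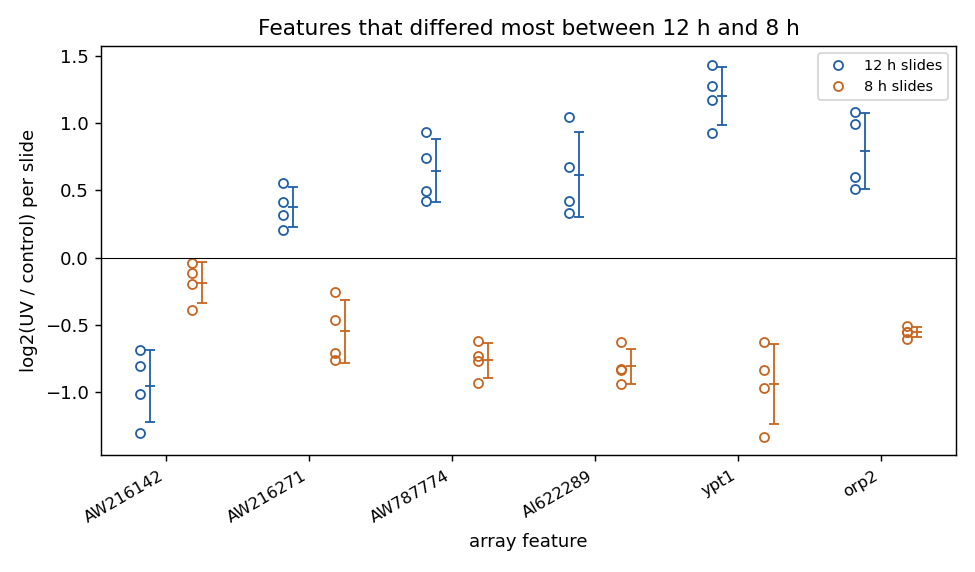
Log2(UV/control) on each slide (circles) for the 4 features whose difference passed and for ypt1 and orp2, with 12 h slides in blue left of 8 h slides in orange. Bars give the mean ± SD of 4 slides. In all features shown but AW216142 the 12 h slides lie above 0 and the 8 h slides below 0.

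The separate channels were fitted to see which side of the ratio moved. Their changes were less precise than the differences, with an SE of 0.74 for AW216271, against 0.14 for its difference. The fit of single channels, on the 14229 features measured on all slides, called 1 feature between 12 h and 8 h in UV leaves (0.00703%) and 5 in control leaves (0.0351%), all lower at 12 h. The feature called in UV leaves, BE186362, was also among the 5. It changed by -5.92 in UV leaves and -5.78 in control leaves, with a difference in response of -0.14. For ypt1 the normalized log2 intensity was 20.34, 19.87, 20.58 and 19.87 in UV leaves and 19.06, 18.94, 19.15 and 18.70 in control leaves at 12 h. At 8 h it was 20.05, 20.91, 21.04 and 21.63 in UV leaves and 21.38, 21.74, 22.01 and 22.25 in control leaves. The control samples of 12 h were thus all far below those of 8 h, by -2.88 ± 0.54 (limma adjusted p = 0.0235). The UV samples differed by -0.74 ± 0.54 (limma adjusted p = 0.878), within their spread.

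In other features whose response went from below to above 0, none of the following changes passed in the fit to all slides. PIP1-3 AI947544 differed by 1.15 in UV leaves and 0.00 in control leaves, ZCAX2 by 1.07 and 0.01, and OBF1 by 0.99 and -0.41. These values take in mismatched blocks of the 12 h slide a, where the 3 had 21.08, 20.62 and 21.17 in UV leaves. On slides b to d they had at most 18.69, 16.44 and 17.29, and overlapped the UV samples of 8 h. The control samples of slides b to d lay below those of 8 h for ZCAX2 (16.02 to 16.14 against 16.50 to 17.86). They did so for OBF1 too (16.70 to 17.11 against 17.79 to 18.93), and overlapped for PIP1-3. AI622289 differed by 0.02 ± 0.35 in UV leaves and by -1.40 ± 0.35 in control leaves. The channel fit needs complete values and could not be made without the mismatched blocks. AW216271 differed by -0.46 ± 0.74 in UV leaves and by -1.38 ± 0.74 in control leaves. With the 12 h and 8 h slides alone, the change of AW216271 in control leaves was -1.39 ± 0.16 (limma adjusted p = 0.00327), that of AW787774 was -1.34 (limma adjusted p = 0.0284) and that of AI622289 was -1.41 (limma adjusted p = 0.0531). In that fit 16 features passed in UV leaves (0.0922%) and 172 in control leaves (0.991%). Of the 782 features in the channel fit with a higher response at 12 h at an unadjusted p under 0.05, 63.7% had the larger change in the control channel, with a median of 0.23 in UV leaves and -0.57 in control leaves. Among the 793 with a lower response the share was 53.5%, and among all 14229 features it was 51.2%.

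**Figure D4:**
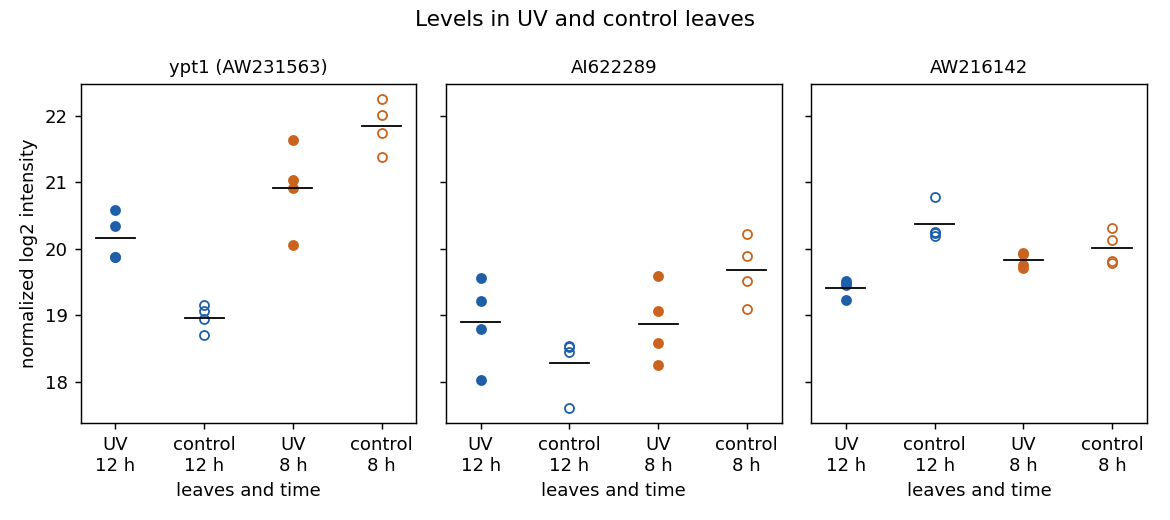
Normalized log2 intensity of each sample for ypt1, AI622289 and AW216142, in UV leaves (filled) and control leaves (open) at 12 h (blue) and at 8 h (orange). Horizontal lines are means of 4 samples. For ypt1 the control samples lie between 18.70 and 19.15 at 12 h, all below the 21.38 to 22.25 of the control samples at 8 h.

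With the 12 h and 8 h slides alone, 16 of the 325 features that passed had a gene name, all of them higher at 12 h and all below 0 at 8 h. Beside ypt1 they included orp2, for a tryptophan synthase subunit, the bZIP factor genes OBF1 and GBF1, whose products bind ocs and G-box promoter elements, the aquaporin genes PIP1-3 and PIP1-1, the acidic ribosomal protein gene arpp2a, the centromeric histone gene cenH3, phb4, named for prohibitin, and the light-harvesting gene lhcb5. The feature orp2 AI629783 had 1.08, 0.51, 0.99 and 0.60 at 12 h, against -0.51, -0.60, -0.55 and -0.55 at 8 h. Its difference was 1.35 ± 0.28 in the fit to all slides (limma adjusted p = 0.102) and 1.35 ± 0.16 in the fit to these 8 (limma adjusted p = 0.00944). GBF1 had a difference of 1.53 and OBF1 of 1.41, with responses of -1.12 each at 8 h and of 0.41 and 0.29 at 12 h. In the fit to all slides without the mismatched blocks, OBF1 had 1.44 and PIP1-3 AI947544 had 1.00, against 1.16 with them, and SE1B had 1.34, against 1.19. Without the mismatched blocks 15 of the 16 still passed in these 8 slides, and the CAT3 feature AI491472 did not (limma adjusted p = 0.0996).

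Other cDNAs of the same genes mostly did not share the change. For 11 of the 16 genes the array holds 24 further features, whose differences ran from -0.74 to 0.77. Their median was -0.115, against -0.04 for all features. Of the 24, 2 exceeded 0.5, against 9.28% of all features. The PIP1-3 features BQ293420 and AW862744, for example, had -0.26 and -0.19, beside 1.16 for AI947544. A further 2 PIP1-3 features, AI738281 (0.73) and AI770766 (-0.09), lie in mismatched blocks, as does AI947544. The cenH3 feature AI612480 had 0.77, beside 1.14 for BQ034683. The other CNX features had 0.48 and 0.46, beside 0.77 for AW257966. The other arpp2a features had -0.74 to -0.09, beside 1.55 for AI461569.

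Many features of this kind shared a profile at the earlier times as well. The 306 features higher at 12 h in the fit to the 8 slides had median responses of 0.35 at 1 h, -0.75 at 2 h, -0.27 at 4 h, -0.79 at 8 h and 0.39 at 12 h. Over the 11 slides of 1, 2 and 4 h, which that fit did not use, 236 of them with complete values correlated with ypt1 at a median r of 0.86, and 161 (68.2%) exceeded 0.8. Among all 16046 features with complete early slides the median r was -0.03, and 2.44% exceeded 0.8. Over all 19 slides, the features most like ypt1 included AI622349 (r = 0.95), AI622289 (0.94) and AW787394 (0.94, measured on 18 slides), and among named genes orp2 (0.94, on 18 slides), arpp2a (AI461569, 0.90), adh1 for alcohol dehydrogenase (0.86), OBF1 (0.86), aoc1 (AI770695, 0.85) and AN3 (0.84). These values take in the 12 h and 8 h slides by which the change was picked. On the early slides alone, r was 0.94 for AI622349, 0.93 for AI622289 and 0.93 for AW787394. It was 0.92 for orp2, 0.88 for arpp2a, 0.85 for adh1, 0.86 for OBF1, 0.87 for aoc1 and 0.86 for AN3. All these correlations are across slides that share their RNA and hybridization. The mismatched blocks, also those of the 1 h and 2 h slides, were kept in them.

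The change of sign also clustered by place on the slide. In row 14 of tiers 9 and 11 the 174 features had a median difference of 0.97, with medians of 0.20 at 12 h and -0.75 at 8 h. A difference over 0.5 was found in 132 of them, against 9.28% of all features. An unadjusted p under 0.05 with a higher response at 12 h was found in 122 of them (70.1%), against 5.19% of the 19840 other features. The row median lay above 0 on each 12 h slide, from 0.04 to 0.44, and below 0 on each 8 h slide, from -0.92 to -0.60. Identifiers beginning AI947 or AI948 made up 159 of the 174. Features with these beginnings elsewhere on the array numbered 232 and had a median difference of 0.12, and the 15 other features of the row had 0.21.

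Of the named features, ZCAX2, for a vacuolar calcium exchanger, OBF1, GBF1, SE1B, PIP1-3 AI947544 and cncr1 lie in that row. When each slide was centred on every row of spots, the differences were 0.07 for ZCAX2, 0.41 for OBF1, 0.51 for GBF1, 0.19 for SE1B, 0.16 for PIP1-3 AI947544 and -0.29 for cncr1. Without the mismatched blocks and with no such centring, ZCAX2 had 1.02, against 1.07 with them, and cncr1 0.69, against 0.70. The value of ypt1, in another row, was then 2.07. With the mismatched blocks of all slides left out, the median of row 14 was 0.95 in tier 9 and 0.87 in tier 11. Of the 325 features that passed in the 12 h and 8 h slides alone, 85 lay in row 14 of these tiers. The 4 spots beside ypt1 had differences of -0.06, 0.24, -0.20 and 0.20. Rows 1 to 5 of tier 12 had a median difference of 0.52 in 419 features of low brightness, or 0.43 in 413 features without the mismatched blocks. All 240 rows of spots together held 20.6% of the variance of the difference. The part of position in the differences was not tested further.

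**Figure D5:**
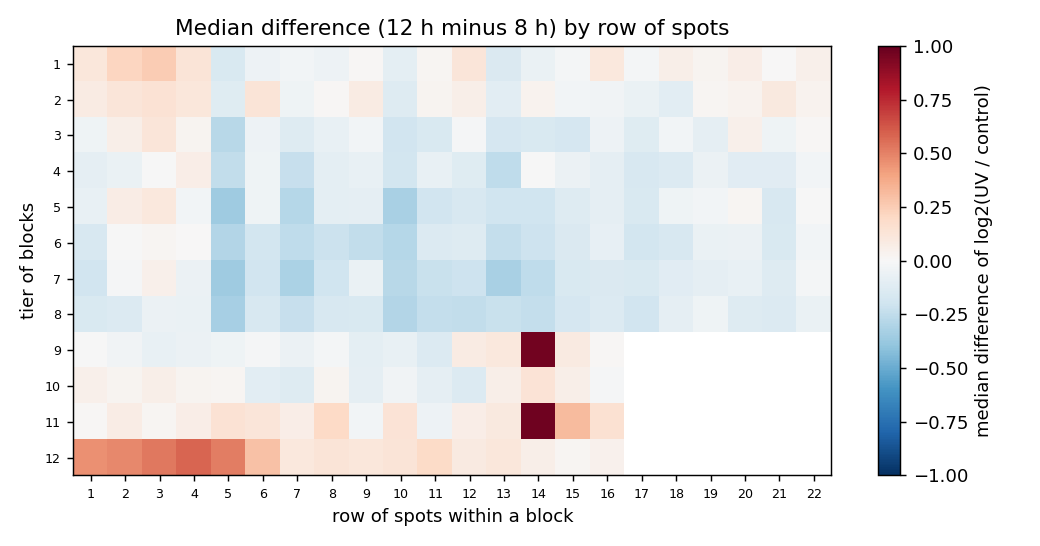
Median difference in log2(UV/control), 12 h minus 8 h, of the features in each row of spots (horizontal axis) of each tier of blocks (vertical axis), on a colour scale from -1 to 1. Row 14 of tiers 9 and 11 stands at 0.97, and rows 1 to 5 of tier 12 lie above the rest.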

How the data were processed

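Total RNA of UV-treated and control leaves was hybridized pairwise on 2-colour cDNA arrays. The deposited files hold 1 linear intensity per spot and channel, read with TIGR Spotfinder per the labels. The sources do not state whether background was subtracted from them. The deposited value table holds a score of unknown scale, centring and background treatment for the same samples and served only as an alternative.

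Intensities were corrected with normexp (offset 50) and normalized by loess (span 0.3) within slides in limma 3.58.1 (R 4.3.3). Of 20231 spot positions 120 control spots were left out, spots of a feature were averaged, and features on at least 2 slides of every time were tested. The model held 5 time means and a dye term over 19 slides. Single channels were fitted after Aquantile normalization with slide pairing, on the 71.1% of features with complete values. Gene names come from the platform table (1331 probes with 1 symbol, 3 with several), and 1165 features of 684 genes had an informative name. Features were named by smallest p in each direction, by list, by opposite calls and by size of held responses. Members, lists and this rule were chosen with earlier results of these data known. The fit was tested on simulated data with the spread of these slides. It called 45% of 100 differences of size 1 and 96% of 100 of size 2, with 8 false calls. UV and control samples of a slide deviated together at r between 0.657 and 0.919. Both come from the same spots, so the ratio per slide was the paired unit. Background correction, normalization, filters, weights, blocks, dye orientation and left-out slides were varied. No sequences were printed.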

Additional observations from a re-analysis of the deposited data

Results flagged for a closer look

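The differences of the 4 unnamed features that passed were listed because the test of the change between the times itself passed: AW216142 at -0.767, AW787774 at 1.41, AW216271 at 0.919 and AI622289 at 1.42.

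Among the 55 named features, 107 groups of 4 slides were searched for a slide far from the others, and 7 had one. A share of 5% is found by chance. The aoc1 feature BQ294408 stood at 2.44 on the 8 h slide a, with the other slides at 0.486 to 0.592. The feature mbd105 AI770580, for a methyl-CpG-binding protein, stood at -1.11 on the same slide, against -0.363 to -0.339. Its difference of 1.14 fell to 0.33 without mismatched blocks. The cncr1 feature AI947674 stood at -0.484 on that slide, with the others at -0.627 to -0.611. At 12 h, lop1 BQ485966 stood at 0.419 on slide c, against -0.158 to -0.0700 on the others, and lop1 BQ528828 at 0.823 on slide a, against -0.128 to -0.0505. The CAT3 feature AI491472 stood at 0.474 on the 12 h slide c, with the others at 0.185 to 0.227, and pfk1 AW927912 at -0.599 on the 12 h slide d, with the others at -0.417 to -0.403.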

How the results depend on the processing

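The count of 4 passing differences became 20 without background correction, 205 with median centring, 7 with loess within blocks, 17 with the authors' matrix values, 19 with scaling between slides, 325 with slide weights, 325 with the 12 h and 8 h slides alone (312 without the mismatched blocks), 18 among features above the brightest foreign spot, and 1 with print-row centring, an alternative added after seeing the data, as was leaving out mismatched blocks. It was 0 in limma without the dye term (1689 at an unadjusted p under 0.05), 0 on slides a and b alone (2926) and 0 on slides c and d alone (653). With no replicate block, UV and control of a slide unpaired, it was 0 (237 unadjusted), with 29 calls at 12 h, 9 at 8 h and 0 opposite calls. With the replicate letter as a block across times it was also 0 (2156 unadjusted). Same-letter slides of 12 h and 8 h correlated at r of 0.0886 to 0.366 after the dye effect, and 2 of 4 matched their own letter best. Whether a letter marks shared material across times cannot be told from these values. Leaving out 1 slide gave 0 to 4 differences, 154 to 805 calls at 12 h, 7 to 1445 at 8 h and 0 to 7 opposite calls; the lowest were without the 12 h slide c (154) and without the 8 h slide a (7).

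Calls at 12 h were 427 with median centring, 2024 with slide weights and 482 without the dye term, and 0 on slides a and b or c and d alone. Calls at 8 h were 3183, 2721 and 895 in the first 3 of these settings, 986 with scaling between slides, 426 on slides a and b and 1 on slides c and d. Features called with opposite signs numbered 16 with matrix values, 1 with median centring, 47 with slide weights, 4 without the dye term, 74 with the 12 h and 8 h slides alone (75 without mismatched blocks), 15 above the foreign spots and 0 on slides a and b or c and d. With these 8 slides alone, channel calls were 16 in UV and 172 in control leaves.

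The sign of the difference turned for chn1 with scaling (0.183), slide weights (0.000923), slides c and d (1.08) and without the 8 h slide a (0.0376) or b (0.0633), for lls1 with scaling (0.00122) and slides c and d (0.429), and for CesA-9 with median centring (-0.0440) and without the 8 h slide d (-0.0381) or the 12 h slide a (-0.0122). It turned for CAT3 AI999974 without background correction (0.0214), glb1 with median centring (0.116), gst41 with matrix values (-0.0149), hdr10 on slides c and d (0.0723), cncr1 with print-row centring (-0.291) and lhcb5 AW927758 without the 8 h slide c (0.0395). With 1 slide left out, the lowest value was -0.794 for chn1 and -0.213 for lhcb5 AW927758, and the highest was 0.142 for CesA-9. None of these values passed, and the cause was not tested. The number of slides limits the precision, and 72.5% of features were brighter than the brightest foreign spot.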
